A study of Mus musculus with 4 samples.

Results

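Genes of DNA replication and nucleotide supply were compared between Met-low and Met-high cells of the mouse melanoma line B16-F10. The group holds 51 genes, listed by their known roles in replication, and for all 51 the scanner marked a probe as well above background on both arrays of Met-low, of Met-high or of both, a condition that 11958 genes met. The cells came from a single line, grown as a culture without an added agent, and were split with a flow cytometer by the amount of Met, the receptor tyrosine kinase for hepatocyte growth factor, on their surface. Met-low and Met-high cells were then kept in culture for 3 days apart from each other, and 2 samples per population, prepared independently, were measured on 1-colour mouse oligonucleotide arrays after labelling of the RNA with Cy3. The unsorted parental cells were not analysed here, so each value compares the sorted populations with each other.

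Replication starts at origins, which are bound by the origin recognition complex (ORC). Cdc6 and Cdt1 then load the ring of Mcm2 to Mcm7 onto DNA in G1 phase, a step held in check by geminin, and the kinase Cdc7 with its partner Dbf4, together with Cdc45, GINS and Mcm10, turns this ring into an active helicase. DNA polymerases, a sliding clamp and its loader, single-stranded DNA binding protein, a flap nuclease and a ligase copy and join the strands, and ribonucleotide reductase, thymidylate synthase and thymidine kinase supply the nucleotides. Many of these genes are targets of E2F transcription factors and are transcribed most at the passage from G1 into S phase, so that in proliferating cells their RNA is commonly read as a sign of cycling cells. In RNA from bulk cells, a smaller share of cells in S phase and less RNA per cell cannot be told apart.

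Signals are given as log2 of the background-corrected intensity relative to the 75th percentile of the array, and log2 ratios as Met-high minus Met-low. The slide was shared by the 4 arrays and scanned once. Since Met-low RNA was at its positions 1 and 2 and Met-high RNA at 3 and 4, a difference between positions and one between populations cannot be told apart. Array intensities had a 75th percentile between 858 and 1331, and at most 53.6% of the spots of an array were well above background. All 10 melanocyte markers were well above background on all 4 arrays, with summed levels, in multiples of the 75th percentile, between 1463 and 1784. Summed levels reached at most 0.70 for 8 fibroblast markers, 8.59 for 6 endothelial markers, 6.63 for 7 leukocyte markers with a probe and 0.23 for 6 keratinocyte markers. Well above background on all 4 arrays were 1 fibroblast marker, *Col1a2*, 2 endothelial markers, *Kdr* and *Vwf*, 3 leukocyte markers, *Cd3e*, *Csf1r* and *Itgam*, and 0 keratinocyte markers. The fibroblast markers *Dcn*, *Lum*, *Pdgfra*, *Pdgfrb* and *Thy1*, the leukocyte markers *Lyz2* and *Ptprc*, the endothelial markers *Cdh5*, *Emcn* and *Tek* and the keratinocyte markers *Cdh1*, *Epcam* and *Krt1* were so on no array. *Col1a2*, a collagen gene, was called higher in Met-low cells (log2 ratio -1.10, adjusted p = 0.0311), and its part in the results below was not tested. *Met* itself was at -0.26 and -0.89 in Met-low and at 1.03 and -0.43 in Met-high cells, which overlapped (log2 ratio 0.87, adjusted p = 0.333).

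Most genes of the group had a higher signal in Met-high cells. The mean was higher in Met-high cells for 46 of 51 genes, where 59.5% of all genes tested had a log2 ratio above 0, and each Met-high array lay above each Met-low array for 40 of the 51, against 35.8% of all genes. The median log2 ratio was 0.62 (quartiles 0.37 and 0.77), against 0.10 over all genes, and 8.87% of all genes lay at or above this median. Of the 51 genes, 4 passed the adjusted p of limma, *Mcm10*, *Mcm5*, *Cdc6* and *Mcm7*, all higher in Met-high cells, against 1.95% of all genes called in that direction, and 0 were called higher in Met-low cells, against 3.82%. Before adjustment, 35 genes (68.6%) were at a p under 0.05 on the Met-high side, against 14.3% of all genes, and 1 gene, *Orc4*, on the Met-low side, against 11.9%. These counts rest on few arrays. Under other ways of processing, the genes called higher in Met-high cells numbered 0 to 34 of the 51, against 0 to 1976 over all genes. With each array left out in turn, which leaves 1 array in a population, the median log2 ratio stayed between 0.53 and 0.64.

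**Figure D1:**
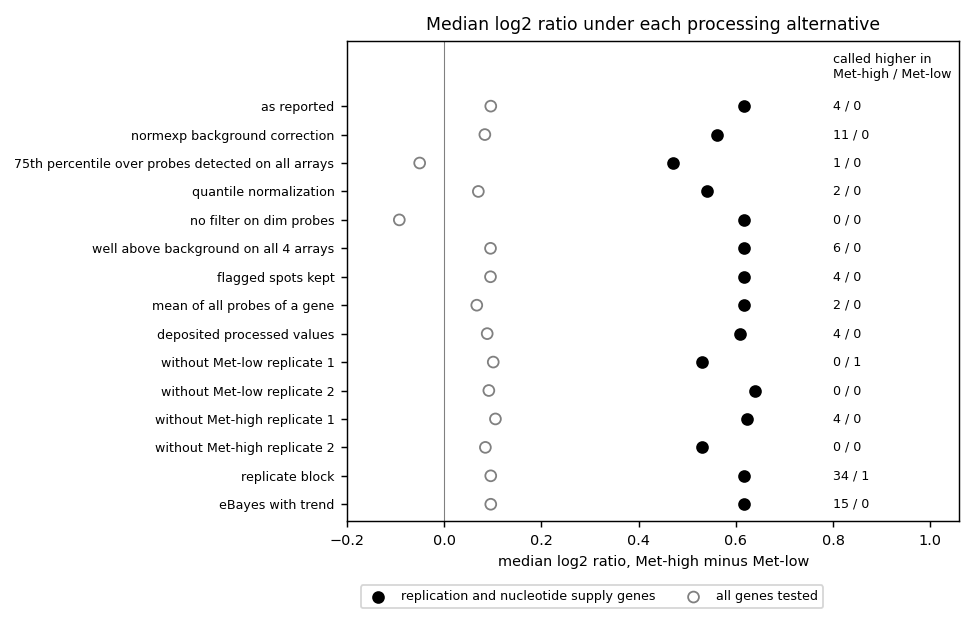
Median log2 ratio, Met-high minus Met-low (horizontal axis), of the 51 genes (filled points) and of all genes tested (open points) under each way of processing, with the number of the 51 genes called on the Met-high and on the Met-low side at the right. The medians of the 51 genes stay between 0.47 and 0.64, while the genes called higher in Met-high cells number 0 to 34.

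The differences were moderate in size. A difference of more than 2-fold was reached on the Met-high side by *Mcm10* and *Mcm5*, against 2.43% of all genes, and on the Met-low side by *Orc4*, against 5.29%. Log2 ratios ran from -1.03 for *Orc4* to 1.02 for *Mcm10*. The lower quartile of the group was 0.37, a value reached by 23% of all genes. A higher mean in Met-low cells was found for 5 genes, *Orc4*, *Gins3*, *Rfc1*, *Orc2* and *Rpa3*. Both Met-low arrays lay above both Met-high arrays for 3 genes, against 22.6% of all genes. The populations overlapped for 8 genes, against 4977 of the 11958 tested. These 8 were *Orc3*, *Orc5*, *Orc6*, *Cdc7*, *Dbf4*, *Pola1*, *Rfc1* and *Rpa3*.

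The arrays within a population also differed in these genes. Replicate 2 was above replicate 1 for 42 of 51 genes in Met-low and for 42 of 51 genes in Met-high cells, with a median difference of 0.13 and 0.17, while over all genes these medians were 0.02 and 0.04. Both were smaller than the median difference of 0.62 between the populations.

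**Figure D2:**
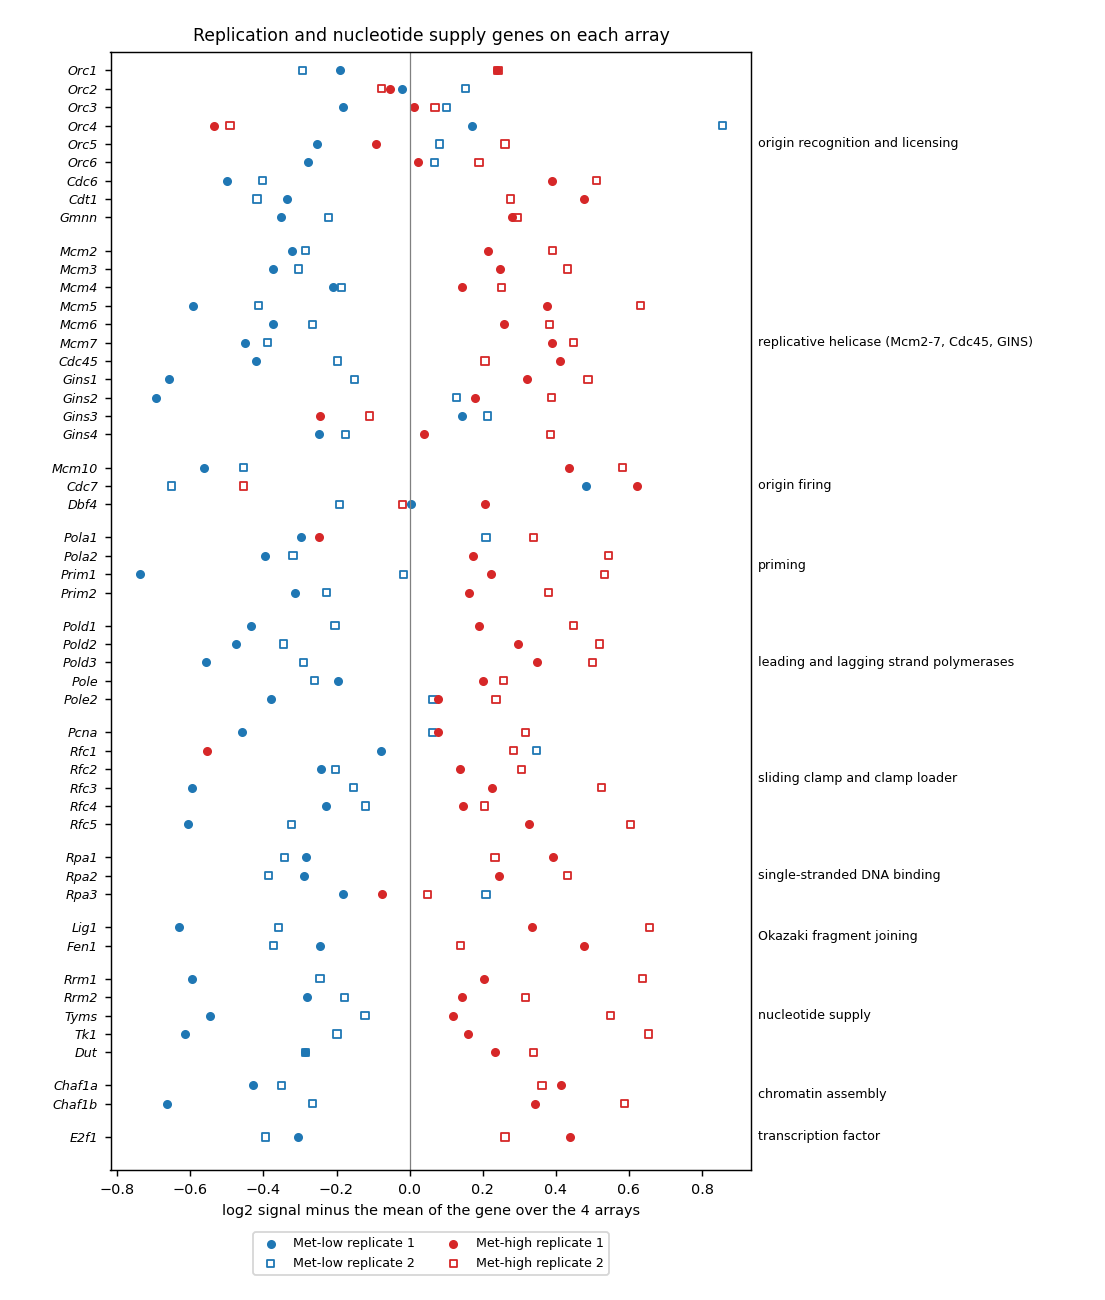
Log2 signal of each of the 51 genes on each array, minus the mean of the gene over the 4 arrays (horizontal axis), with genes grouped by role. Filled circles are replicate 1 and open squares replicate 2, Met-low in blue and Met-high in red; for 40 genes both red symbols lie to the right of both blue symbols.

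The 4 genes called act at the loading and the first steps of the replicative helicase. *Mcm10* (NM_027290), which takes part in starting the loaded helicase, had log2 signals of 2.86 and 2.97 in Met-low and of 3.86 and 4.01 in Met-high cells. The populations did not overlap, and the log2 ratio was 1.02 (95% interval 0.61 to 1.42, standard error 0.16, adjusted p = 0.0317). *Mcm5* (NM_008566), a subunit of the helicase ring, was at 3.88 and 4.05 in Met-low and at 4.84 and 5.10 in Met-high cells. Its log2 ratio was 1.01 (standard error 0.18, 95% interval 0.55 to 1.46, adjusted p = 0.0415), and the gap between the populations exceeded the gap between replicates in either. *Cdc6* (NM_011799), the ATPase that loads the ring together with ORC, had log2 signals of -0.29 and -0.19 in Met-low and of 0.60 and 0.72 in Met-high cells. These values did not overlap, with a difference of 0.90 in log2 (adjusted p = 0.0410, standard error 0.16), and the other probe of the gene gave 0.66. *Mcm7* (NM_008568), another subunit of the ring, was at 4.12 and 4.18 in Met-low and at 4.96 and 5.02 in Met-high cells. The replicates of *Mcm7* lay close together, and its log2 ratio was 0.84 (standard error 0.15, adjusted p = 0.0445). In 13 fits that changed the background correction, the scaling, the filters, the choice of probe, the arrays used or the variance model, the log2 ratio was 0.87 to 1.09 for *Mcm10* (adjusted p 0.0141 to 0.163), 0.85 to 1.13 for *Mcm5* (0.0174 to 0.188), 0.75 to 0.96 for *Cdc6* (0.0251 to 0.188) and 0.69 to 0.87 for *Mcm7* (0.018 to 0.205).

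To show what the regulatory sequence of these genes looks like, the 250 bases before the transcription start are printed for the 4 genes called, for *Mcm6*, which holds the most matches to an E2F motif, and for *Gins3*, whose signal lay the other way. They are RefSeq sequences of build GRCm38.p6, read 5′ to 3′ on the strand of the gene, and capitals mark the letters of an E2F motif, searched as TTTCCCGC, TTTCGCGC, TTTGCCGC and TTTGGCGC on both strands, where matches may overlap. *Mcm5* lies on the plus strand at chr8:75109259-75109508, *Mcm6* on the minus strand at chr1:128359706-128359955, *Mcm7* on the minus strand at chr5:138171884-138172133, *Cdc6* on the plus strand at chr11:98907901-98908150, *Mcm10* on the minus strand at chr2:5012792-5013041 and *Gins3* on the plus strand at chr8:95633309-95633558.
Mcm5: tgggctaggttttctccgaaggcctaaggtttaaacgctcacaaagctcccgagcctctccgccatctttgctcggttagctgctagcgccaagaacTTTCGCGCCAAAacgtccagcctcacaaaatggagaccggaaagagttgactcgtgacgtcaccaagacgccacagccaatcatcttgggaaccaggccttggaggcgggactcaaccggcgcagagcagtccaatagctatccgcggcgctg
Mcm6: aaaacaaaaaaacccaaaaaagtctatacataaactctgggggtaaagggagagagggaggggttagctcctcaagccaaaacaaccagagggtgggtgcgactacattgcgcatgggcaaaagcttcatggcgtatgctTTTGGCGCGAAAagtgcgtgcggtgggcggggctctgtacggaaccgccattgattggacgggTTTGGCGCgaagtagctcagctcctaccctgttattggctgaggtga
Mcm7: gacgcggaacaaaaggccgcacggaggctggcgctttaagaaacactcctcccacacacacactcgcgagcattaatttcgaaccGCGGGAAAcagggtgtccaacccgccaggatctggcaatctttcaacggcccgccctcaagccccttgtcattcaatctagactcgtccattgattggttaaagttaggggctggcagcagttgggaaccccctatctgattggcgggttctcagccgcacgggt
Cdc6: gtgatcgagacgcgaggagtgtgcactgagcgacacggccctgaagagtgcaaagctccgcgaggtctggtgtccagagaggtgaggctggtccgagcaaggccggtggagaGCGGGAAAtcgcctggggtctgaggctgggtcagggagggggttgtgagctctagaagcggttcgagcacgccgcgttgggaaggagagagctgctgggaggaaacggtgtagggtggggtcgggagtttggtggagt
Mcm10: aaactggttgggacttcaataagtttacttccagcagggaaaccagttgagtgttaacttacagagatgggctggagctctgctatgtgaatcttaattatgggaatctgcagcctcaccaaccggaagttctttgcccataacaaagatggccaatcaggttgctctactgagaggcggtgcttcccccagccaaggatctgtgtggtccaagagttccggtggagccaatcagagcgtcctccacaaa
Gins3: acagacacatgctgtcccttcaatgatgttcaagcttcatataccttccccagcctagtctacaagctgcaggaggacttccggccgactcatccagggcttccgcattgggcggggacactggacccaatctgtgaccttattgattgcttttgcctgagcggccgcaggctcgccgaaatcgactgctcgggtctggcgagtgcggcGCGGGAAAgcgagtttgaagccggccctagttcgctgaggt
In *Mcm5* a match on the plus strand and one on the minus strand share letters in the middle of a single run, which begins 153 bases before the start. *Mcm6* has the same kind of run beginning 110 bases before the start, and another match at 47 bases. The match of *Cdc6* begins 138 bases before the start and that of *Gins3* 41 bases before it. *Mcm7* has another annotated start with no match, and a further match past the start shown. The letters searched are not in the window of *Mcm10*.

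Over the whole group, 43 of the 51 genes had a promoter window in the table, from 250 bases before to 50 bases after the start. An E2F form was found in 15 of these 43 genes (34.9%), against 2.60% of 27025 mouse genes with a window. The 15 genes were *Mcm3*, *Mcm5*, *Mcm6*, *Mcm7*, *Orc1*, *Orc3*, *Cdc6*, *Cdt1*, *Gins3*, *Pola1*, *Pole2*, *Pold1*, *Pold3*, *Rfc3* and *Lig1*. Their median log2 ratio was 0.68, and that of the 28 genes without a match was 0.62. The pentamer CCAAT was found in 55.8% of the genes, against 41.1% of all, and the hexamers TTTGAA and TTCGAA, in which a cell cycle element of mitotic genes is commonly written, in 20.9%, against 21.7%. A match describes letters and not a bound site, and the arrays measured no binding. Not searched were *Gins1*, *Gins2*, *Gins4*, *Gmnn*, *Mcm4*, *Pole*, *Prim2* and *Rfc2*.

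The subunits of ORC and the Mcm ring stood differently. All 6 genes *Mcm2* to *Mcm7* had each Met-high array above each Met-low array, with log2 ratios from 0.40 for *Mcm4* to 1.01 for *Mcm5* and a median of 0.66, and *Mcm6* was at 5.67 and 5.78 in Met-low and at 6.30 and 6.43 in Met-high cells (log2 ratio 0.64, adjusted p = 0.0843). Of the 6 ORC subunits, only *Orc1* had each Met-high array above each Met-low array, and the median was 0.13. This median took the other sign, at -0.02, when only probes detected on all arrays set the percentile. That scaling changes each array by a constant, so the log2 ratios of all genes shift alike. The median over all tested genes moved to -0.05 from 0.10 and that of the 51 genes to 0.47 from 0.62. The gap of 0.52 between these medians could therefore not change. The complexes also differed in signal level. In Met-low cells the mean log2 signal was 3.87 for *Mcm4*, the lowest of the ring. It was 2.83 for *Orc6*, the highest of ORC, and -2.35 for *Orc4*, the lowest. The difference between the complexes was not tested, since the subunits are not replicates, nor was the part of signal level in it.

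*Orc4* (NM_011958), an ATPase subunit of ORC, was the gene of the group with the lowest log2 ratio. Its log2 signals were -2.69 and -2.00 in Met-low and -3.39 and -3.35 in Met-high cells. Both Met-low arrays lay above both Met-high arrays, with an SD of 0.48 in Met-low against 0.03 in Met-high, and the log2 ratio of -1.03 (standard error 0.26, 95% interval -1.68 to -0.37) had an adjusted p of 0.0867. The other *Orc4* probe gave -0.73, and normexp background correction gave -0.69 for the probe used. Background-corrected intensities of the probe used were 146 and 332 in Met-low and 81.7 and 109 in Met-high cells. Without Met-low replicate 1 the log2 ratio was -1.37, and without Met-low replicate 2 it was -0.68.

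*Orc1*, whose product is the largest ORC subunit and is made periodically in the cell cycle, was at -2.12 and -2.22 in Met-low and at -1.69 and -1.68 in Met-high cells (log2 ratio 0.48, 95% interval 0.09 to 0.87, adjusted p = 0.135). *Orc2*, which was higher on both Met-low arrays, had a log2 ratio of -0.13 (95% interval -0.54 to 0.28). For *Orc3*, *Orc5* and *Orc6* the populations overlapped, with log2 ratios of 0.08, 0.17 and 0.21, and the other *Orc3* probe gave -0.27. *Orc3* also took the other sign with quantile normalization, at -0.04, and with the percentile over detected probes, at -0.07.

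**Figure D3:**
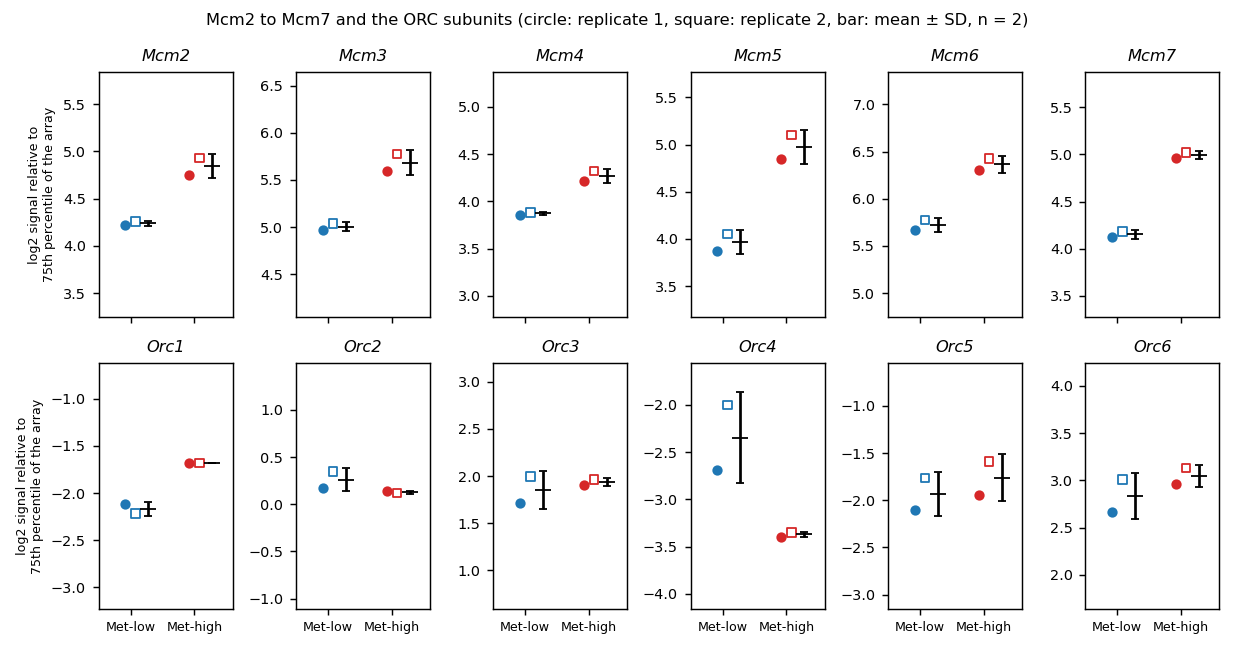
Log2 signal relative to the 75th percentile of the array for *Mcm2* to *Mcm7* (upper row) and *Orc1* to *Orc6* (lower row) in Met-low (blue) and Met-high (red) cells. Circles are replicate 1, squares replicate 2, and black bars the mean ± SD (n = 2); all vertical axes span the same number of log2 units but start at different levels, and the Mcm genes have both red symbols above both blue ones, while among ORC genes this holds for *Orc1* alone and *Orc2* and *Orc4* lie the other way.

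The remaining licensing factors were higher in Met-high cells without passing the adjusted p. *Cdt1*, the partner of Cdc6 in loading the ring, was at 4.42 and 4.34 in Met-low and at 5.23 and 5.03 in Met-high cells (log2 ratio 0.75, 95% interval 0.33 to 1.17, adjusted p = 0.066). *Gmnn*, which encodes geminin, the inhibitor of Cdt1, had a log2 ratio of 0.57 (95% interval 0.18 to 0.97, adjusted p = 0.102). The activator and its inhibitor thus lay on the same side.

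Of the other helicase components, *Cdc45* was at -1.32 and -1.10 in Met-low and at -0.49 and -0.70 in Met-high cells (log2 ratio 0.62, adjusted p = 0.113). The GINS complex has 4 subunits, and they did not lie together: the log2 ratios were 0.81 for *Gins1*, 0.57 for *Gins2* and 0.42 for *Gins4*, with each Met-high array above each Met-low array in each, and -0.36 for *Gins3*. *Gins3* (NM_030198) was at 4.85 and 4.92 in Met-low and at 4.46 and 4.60 in Met-high cells. The order of the populations was the reverse of that of the other GINS subunits on all 4 arrays, with an interval that included 0 (95% interval -0.76 to 0.04, adjusted p = 0.23). The Met-low arrays lay apart for *Gins1*, at 0.86 and 1.37, and for *Gins2*, at -0.47 and 0.35. The log2 ratio of *Gins2* was 0.16 without Met-low replicate 1 and 0.98 without Met-low replicate 2.

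Among the genes of origin firing, *Mcm10* alone had arrays that did not overlap. The kinase *Cdc7* had a log2 ratio of 0.17 (95% interval -1.11 to 1.44) and its activating partner *Dbf4* of 0.19 (95% interval -0.26 to 0.63). *Cdc7* was the only gene of the group not well above background on all 4 arrays (1 of 2 in Met-low and 2 of 2 in Met-high), at -3.64 and -4.77 in Met-low and at -3.50 and -4.58 in Met-high cells, and the wide interval leaves a difference of 2-fold in either direction within it.

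The genes of DNA synthesis were mostly higher in Met-high cells. The group holds 5 genes of polymerases delta and epsilon, the enzymes of the lagging and the leading strand. For all 5, each Met-high array lay above each Met-low array, with a median log2 ratio of 0.64. *Pold3*, an accessory subunit of polymerase delta, was at 1.63 and 1.90 in Met-low and at 2.54 and 2.69 in Met-high cells (log2 ratio 0.85, adjusted p = 0.0602). The catalytic subunits *Pold1*, at 3.14 and 3.37 against 3.76 and 4.02, and *Pole* had log2 ratios of 0.64 and 0.46, and that of *Pole* was -0.44 with the mean of its probes, of which the other was well above background on no array. *Pold2* was at 0.82 (adjusted p = 0.0596), and *Pole2* at 0.31 with a 95% interval from -0.21 to 0.84.

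Polymerase alpha with its primase lays down the primers. The primase subunit *Prim1* averaged 2.74 ± 0.51 (SD, n = 2) on the Met-low arrays and 3.49 ± 0.22 (SD, n = 2) on the Met-high arrays, without overlap but with a wide spread in Met-low (log2 ratio 0.76, 95% interval 0.04 to 1.48). The log2 ratio was 0.39 when Met-low replicate 1 was left out and 1.12 when Met-low replicate 2 was. *Pola2* and *Prim2* had log2 ratios of 0.72 and 0.54. The catalytic subunit *Pola1* overlapped between the populations, at 0.69 and 1.19 in Met-low and at 0.74 and 1.32 in Met-high cells. Its log2 ratio of 0.09 (95% interval -0.62 to 0.80) became -0.06 with the percentile over detected probes.

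*Pcna* (NM_011045), the sliding clamp and a common marker of proliferating cells, was at 4.85 and 5.37 in Met-low and at 5.39 and 5.62 in Met-high cells. Its lowest Met-high value was only just above its highest Met-low value, and the log2 ratio was 0.39 (95% interval -0.19 to 0.98, adjusted p = 0.335). Without Met-low replicate 1 it was 0.13, and without Met-low replicate 2 it was 0.65. In the loader of the clamp, the small subunits *Rfc2* to *Rfc5* had log2 ratios of 0.44, 0.75, 0.35 and 0.93, all without overlap. *Rfc5* was at 2.95 and 3.23 in Met-low and at 3.88 and 4.16 in Met-high cells (adjusted p = 0.0598). The large subunit *Rfc1* overlapped, at 2.01 and 2.43 against 1.53 and 2.37, with a log2 ratio of -0.27 (95% interval -1.09 to 0.56).

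Replication protein A covers single-stranded DNA with 3 subunits. *Rpa1* was at 5.47 and 5.41 in Met-low and at 6.15 and 5.99 in Met-high cells (log2 ratio 0.63, adjusted p = 0.0897), and *Rpa2* at 0.98 and 0.88 against 1.51 and 1.70 (log2 ratio 0.68, adjusted p = 0.0806). The smallest subunit, *Rpa3*, overlapped and had a log2 ratio of -0.03 (95% interval -0.52 to 0.47).

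Genes that join Okazaki fragments or assemble chromatin behind the fork had log2 ratios from 0.62 to 0.99. *Lig1*, the ligase of the lagging strand, was at 3.86 and 4.13 in Met-low and at 4.82 and 5.14 in Met-high cells, and its log2 ratio of 0.99 (95% interval 0.49 to 1.49) had an adjusted p of 0.0558. *Fen1*, the nuclease that removes flaps, had a log2 ratio of 0.62 (adjusted p = 0.125). *Chaf1a* and *Chaf1b* encode subunits of the histone chaperone CAF-1, which places new histones on copied DNA. *Chaf1b* was at 3.94 and 4.34 in Met-low and at 4.95 and 5.19 in Met-high cells (log2 ratio 0.93, adjusted p = 0.0686), and *Chaf1a* had a log2 ratio of 0.78 (adjusted p = 0.0546).

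All 5 genes of nucleotide supply had each Met-high array above each Met-low array, and 0 passed the adjusted p. *Rrm1*, the large subunit of ribonucleotide reductase, was at 3.51 and 3.86 in Met-low and at 4.31 and 4.75 in Met-high cells (log2 ratio 0.84, 95% interval 0.26 to 1.42, adjusted p = 0.102). *Rrm2*, the small subunit made in S phase, was at 5.34 and 5.44 against 5.76 and 5.94 (log2 ratio 0.46, 95% interval 0.05 to 0.87, adjusted p = 0.16). Both subunits of the enzyme were thus higher on both Met-high arrays, as were 35.8% of all genes. *Tyms*, thymidylate synthase, was at -2.52 and -2.09 in Met-low and at -1.85 and -1.42 in Met-high cells (log2 ratio 0.67, adjusted p = 0.163). *Tk1*, the thymidine kinase of the salvage route, had a log2 ratio of 0.81 (adjusted p = 0.126) and *Dut*, which removes dUTP, of 0.57 (adjusted p = 0.101). In this role replicate 2 was above replicate 1 for 5 of 5 genes in each population, by a median of 0.35 (Met-low) and 0.43 (Met-high).

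*E2f1*, a transcription factor of many of the genes above, was at 1.64 and 1.55 in Met-low and at 2.38 and 2.20 in Met-high cells. Each Met-high array was above each Met-low array, by a log2 ratio of 0.70 (95% interval 0.29 to 1.11, adjusted p = 0.0743).

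**Figure D4:**
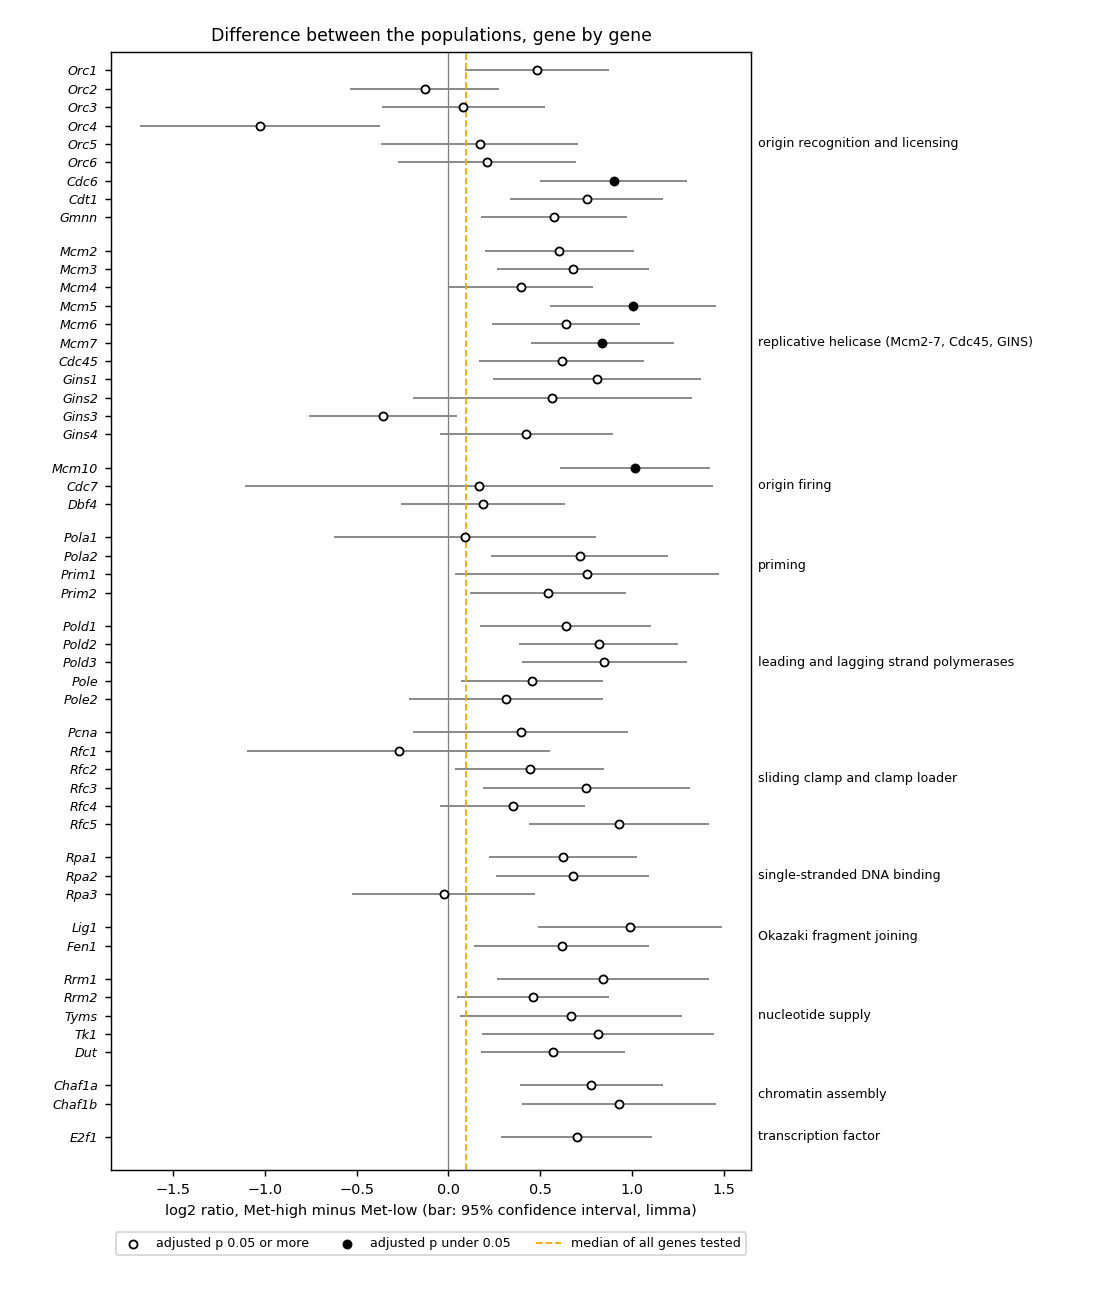
Log2 ratio of each gene, Met-high minus Met-low (points), with its 95% confidence interval from limma (bars), by role. Filled points are the 4 genes at an adjusted p under 0.05, the dashed line is the median of all genes tested at 0.10, and most points lie to its right, with *Orc4*, *Gins3*, *Rfc1*, *Orc2* and *Rpa3* to the left of 0.

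The remaining genes of the same pathways were taken from lists that do not contain the 51 genes. Of 30 other replication genes, the mean of 23 was higher in Met-high cells (median log2 ratio 0.31), where 59.5% of all genes had a log2 ratio above 0. Of these 30, 2 were called higher and 1 lower in Met-high cells, against 1.95% and 3.82% of all genes. *Chtf18*, a part of an alternative clamp loader, was higher at a log2 ratio of 1.03 (adjusted p = 0.0318) and *Timeless*, a fork protection factor, at 0.89 (adjusted p = 0.0410). *Top1*, the topoisomerase that relaxes DNA ahead of the fork, lay the other way, at 1.61 and 1.77 in Met-low and at -0.38 and -0.21 in Met-high cells (log2 ratio -1.99, adjusted p = 0.00827). Of 25 other genes of nucleotide supply, the mean of 19 was higher in Met-high cells (median 0.28). Among these 25, 1 was called higher and 1 lower in Met-high cells, against 1.95% and 3.82% of all genes. *Shmt1*, which passes a carbon unit from serine to folate, was called higher in Met-high cells at 1.05 (adjusted p = 0.0291).

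Of 29 E2F, Rb and G1-S regulators, 28 had a probe and 25 passed the filter (median log2 ratio 0.33). The mean of 17 of the 25 was higher in Met-high cells, where 59.5% of all genes had a log2 ratio above 0. Called were 2 higher and 1 lower in Met-high cells, against 1.95% and 3.82% of all genes. *Tfdp2*, a partner of E2F factors, was called higher in Met-high cells at 1.14 (adjusted p = 0.0222), as was *Cdkn2c*, an inhibitor of the kinases Cdk4 and Cdk6, at 1.02 (adjusted p = 0.0361). *Cdkn1a*, the p21 inhibitor of cyclin-dependent kinases, was called higher in Met-low cells, with both Met-low arrays above both of the other population (log2 ratio -1.54, adjusted p = 0.0183). *Ccnd2*, cyclin D2, had a log2 ratio of -1.28 (adjusted p = 0.0558).

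For 33 of 39 mitosis genes past the filter the mean was higher in Met-high cells, against 59.5% of all genes. The median log2 ratio of the 39 was 0.58, next to 0.62 for the 51 replication genes. Called were 3 higher and 3 lower in Met-high cells, against 1.95% and 3.82% of all genes. The kinases *Plk1*, at 1.09 (adjusted p = 0.0322), and *Aurka*, at 0.87 (adjusted p = 0.0445), and *Espl1*, the protease separase, at 0.96 (adjusted p = 0.0386), were called higher in Met-high cells. *Smc4*, at -2.32 (adjusted p = 0.0099), and *Smc2*, at -1.46 (adjusted p = 0.0381), the core pair of condensin, and *Cenpe*, a kinetochore motor, at -2.08 (adjusted p = 0.0361), were called higher in Met-low cells. The log2 ratio of *Smc4* was thus larger in size than that of any of the 51 replication genes. *Smc4* had log2 signals of 1.28 and 1.72 in Met-low and of -0.96 and -0.68 in Met-high cells. Not called, but also higher on both Met-low arrays, was *Mki67*, with a log2 ratio of -1.69 (adjusted p = 0.189). Its log2 signals were 2.67 and 3.42 in Met-low and 0.38 and 2.34 in Met-high cells.

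**Figure D5:**
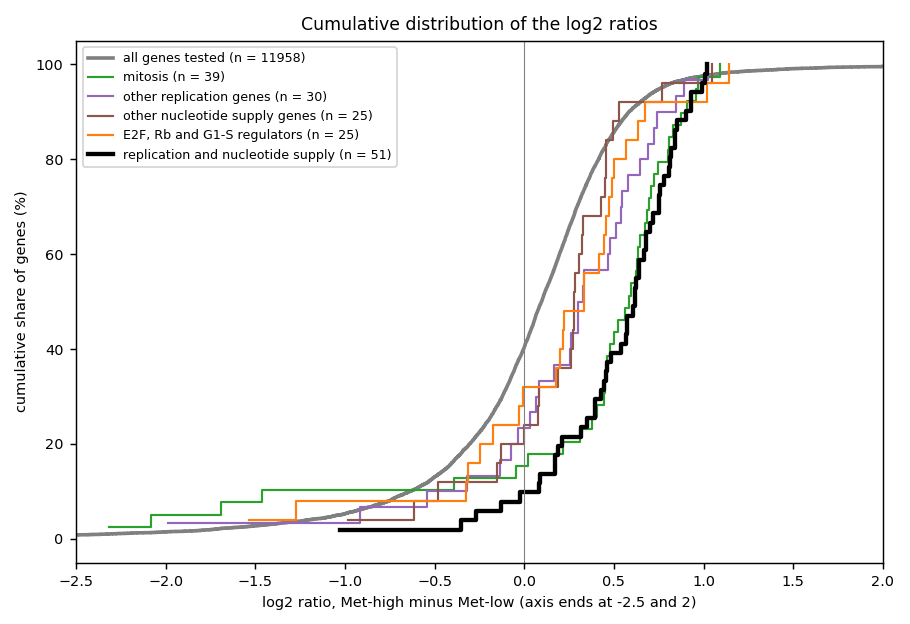
Cumulative share of genes (percent, vertical axis) against the log2 ratio, Met-high minus Met-low (horizontal axis, ending at -2.5 and 2), for the 51 replication and nucleotide supply genes (black), 4 related lists (colours) and all 11958 genes tested (grey). The black curve crosses the middle at 0.62 and the grey curve at 0.10, and the mitosis curve runs beside the black one but starts further left.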

How the data were processed

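For each of 4 arrays the authors deposited scanner output with a linear, background-corrected Cy3 intensity of 43020 spots, and they deposited processed log2 values in a separate table. The labels name Agilent Feature Extraction 10.7.3.1, and the file headers name 11.0.1.1. Groups and replicate numbers came from the labels. Intensities (floor 0.01) were log2 transformed, the 75th percentile of the array was subtracted, and spots of a probe were averaged without flagged ones. Of 39429 probes, 27427 matched a symbol through the RefSeq accession, which gave 20832 genes. The probe with the highest mean over the 4 arrays stood for a gene, and 11958 genes, above background by the scanner's flag on both arrays of either population, entered a two-sided limma test (lmFit, eBayes; limma 3.58.1, R 4.3.3) of 2 arrays per population, called at a Benjamini-Hochberg adjusted p under 0.05. The test was also run on simulated data with independent noise for each gene and array, which did not cover deviations shared between samples. The precision is limited by 2 arrays per population.

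Of 58 probes of the 51 genes, 56 passed the filter. The 51 genes and the other lists were chosen with earlier results of these data known, and the lists are described by counts and medians with no test. Named were the genes called, in each role the gene with the largest change and that with the highest mean signal, *E2f1*, *Pcna*, *Tyms*, *Rrm2* and *Met*, the remaining genes where a role is described in full, and in the other lists the genes called, of which some are not reported here. *Ccnd2* and *Mki67* were named in addition, for the size of their change. Alternatives included normexp as background correction (offset 50), other scalings and filters, flagged spots kept, the mean of the probes, the deposited values, each array left out, a replicate block, a mean-variance trend and a 2-fold threshold with no test. Promoter windows (GRCm38.p6, RefSeq) were searched with Python 3.11.15 and pandas 2.3.3, and figures drawn with matplotlib 3.10.9.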

Additional observations from a re-analysis of the deposited data

How the results depend on the processing

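The median log2 ratio of the 51 genes was 0.62 as reported. Under the alternatives that give one, it ran from 0.47 with the percentile over detected probes to 0.64 without Met-low replicate 2. The median log2 signal of the 51 genes, which is another quantity, had an SD of 0.19 between arrays of a population. The number of genes called did depend on the processing. The genes called higher in Met-high cells, 4 as reported (233 over all genes), numbered 11 with normexp background correction (262) and 15 with a mean-variance trend (392). They numbered 2 with quantile normalization (221), 2 with the mean of all probes of a gene (175) and 1 with the percentile over detected probes (140). With no filter on dim probes, 0 of the 51 and 0 of all 20832 genes tested were called on that side. There, 28 of the 51 genes were at an unadjusted p under 0.05 on the Met-high side, against 5.75% of all genes. Leaving out each array in turn gave a median log2 ratio of 0.53 to 0.64 for the 51 genes and of 0.08 to 0.11 over all genes. A population left with 1 array was given the spread of the other population. With the threshold of more than 2-fold and no test, 2 genes were higher on the Met-high and 1 on the Met-low side. With the stricter filter 6 genes were called higher in Met-high cells (220 over all genes), and 4 with flagged spots kept (223) or with the deposited values (222). For 20 of the 51 genes, those called or foremost in their role, 223 of 280 values computed under an alternative kept their direction and side of the threshold, 32 newly passed it, 25 no longer passed it, and 0 changed sign. The 25 were all values of the 4 genes called, so those calls were the ones that did not hold throughout. Most of the 223 were values of genes not called that stayed so, and the 32 include values from the replicate block. Among all 51 genes, 44 kept their sign under each of 13 alternatives other than the block. The others were *Orc3*, *Orc5*, *Cdc7*, *Pola1*, *Rfc1* and *Rpa3*, whose arrays overlapped between the populations, and *Pole*, with the mean of its probes. Leaving out 1 array turned *Rfc1* to 0.15, *Cdc7* to -0.40 and -0.37, *Pola1* to -0.16 and -0.20, *Rpa3* to 0.17 and 0.04, *Orc3* to -0.06 and *Orc5* to -0.01.

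The replicate number as a block gave 34 genes higher in Met-high and 1 higher in Met-low cells, while over all genes it called 1976 and 1580, against 233 and 457 as reported. Deviations of samples with the same number correlated at 0.54 over all genes and at 0.72 over the 51 genes, but with 2 pairs this does not settle a pairing, and the labels give no shared batch for a number.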
